A study of Mus musculus with 16 samples.

Results

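MHC class II molecules are cell-surface receptors that show peptides from engulfed material to CD4+ T cells. An alpha and a beta chain pair in the endoplasmic reticulum around the invariant chain, travel to endosomes, and there exchange the last piece of that chain for a peptide with the help of the DM complex. In the heart, as in other tissues, dendritic cells, B cells and a portion of the macrophages are known to carry class II, and its genes are switched on as a unit by the coactivator CIITA. The genes described here are 7 symbols of that pathway out of 24982 entries in the gene table, taken by name: H2-Aa and H2-Ab1 (the chains of I-A), H2-Eb1 (the beta chain of I-E), Cd74 (the invariant chain), H2-DMa and H2-DMb1 (the chains of DM) and Ciita.

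They were measured by bulk RNA sequencing of the left ventricle in 16 C57BL/6 mice, 1 library per mouse. All 16 mice were labelled Tln2-null, all received tamoxifen by intraperitoneal injection for 5 days, and all were given angiotensin II (AngII, a hormone that raises blood pressure) by osmotic pump for 8 weeks, starting 2 weeks after tamoxifen. The groups were 8 mice labelled Tln2-null and 8 labelled Tln2-null; Tln1-specific CF knockout, called knockout mice here, with 4 males and 4 females each (CF stands for cardiac fibroblast in the study's title). The sources used here give neither the driver of the deletion nor the deleted exons nor the age of the mice, and mice without AngII or with intact Tln2 were not analysed here. Tln1 and Tln2 encode talins, adaptors between integrins and actin.

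Levels are in CPM, a gene's counts scaled to a fixed library total, after scaling of the libraries by the trimmed mean of M values. Library totals ran from 11161766 to 19221673 counts. For a count of 0, 3 counts were taken as an upper limit of counting error in a single library, or 0.156 to 0.269 CPM. Tln1 stood at 251 to 322 CPM in Tln2-null and 221 to 323 CPM in knockout mice, and Tln2 at 55.6 to 76.8 and 62.4 to 70.4 CPM, so the genotypes overlapped for both genes (edgeR adjusted p = 0.942 for Tln1 and 0.997 for Tln2). Tln2 had 744 to 1477 counts in every library, so its whole-gene count is not that of an absent transcript, and neither gene's count checks the genotype labels, which are used here as given. Libraries of 2 kinds stood apart. In Tln2-null replicate 8 and knockout replicate 8 the clock gene Arntl (28.4 and 27.1 CPM) was above the 3.66 to 8.44 CPM of the other 14 libraries, and Per2 (12.2 and 10.2 CPM) below their 31.7 to 57.9 CPM. Summed CPM of Y-linked genes were 247 to 338 in males, and in 4 of the 8 labelled females (Tln2-null replicate 4 and knockout replicates 3, 5 and 7) they came to 3.14 to 8.16, which is 1.11 to 2.89 percent of the male mean, against 0.495 to 1.11 CPM in the other 4. The main results below are also given with these libraries left out.

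All 7 genes were found in all 16 ventricles and passed the filter on low counts, so every one of them was tested. The 5 H2 genes lie in the MHC region of chromosome 17, by RefSeq on GRCm38.p6 (mm10). H2-Ab1 lies on chromosome 17 from 34263227 to 34269418, H2-Aa from 34282744 to 34287823, H2-Eb1 from 34305867 to 34316674, H2-DMa from 34119693 to 34139101 and H2-DMb1 from 34153191 to 34160229. Ciita lies on chromosome 16 from 10480014 to 10531064. Of these genes, H2-DMa shared 360 of its 3448 annotated exon bases with Brd2 on the opposite strand (124 CPM), and Ciita shared 329 of 9535 with Dexi (34.2 CPM). Libraries were made with a strand-marking kit, but the sources used here do not say whether counting used strand, and then reads of these 2 genes and of their neighbours cannot be told apart where exons overlap.

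Promoter sequences are shown because they carry the shared control elements of the family. Class II promoters are known for an X box, bound by the RFX complex, an adjoining site of the CREB type and a Y box bound by NF-Y, on which CIITA docks. RefSeq promoter windows on GRCm38.p6 matched 4 of the 7 genes by symbol, and in the 250 bases before the start 3 of these 4 had a Y box (TGATTGG) with an X box (AACNNNTG) or a CREB-type site (TGACGTCA) up to 40 bases to its 5′ side. Those stretches follow, read 5′ to 3′ on the coding strand, with the matched motifs in capitals; H2-Aa is chr17:34287859-34287911 (minus strand), H2-Eb1 chr17:34305764-34305820 (plus) and H2-DMb1 chr17:34153085-34153142 (plus).
H2-Aa: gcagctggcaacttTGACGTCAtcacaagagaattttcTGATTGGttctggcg
H2-Eb1: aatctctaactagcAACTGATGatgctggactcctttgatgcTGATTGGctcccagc
H2-DMb1: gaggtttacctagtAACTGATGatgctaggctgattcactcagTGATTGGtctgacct

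The Y box began 50 bases before the start of H2-Aa, 61 before that of H2-Eb1 and 63 before that of H2-DMb1, and 16, 20 and 21 bases lay between it and the upstream motif. Such a pair on one strand, in either orientation, was found in 103 of 32851 promoter windows (0.314 percent). Singly, the Y box was in 7.23 percent of the windows, the X box in 31.0 percent and the CREB-type site in 1.55 percent, on either strand. Neither of the 2 windows of H2-DMa held any of the 3 motifs as spelled here. These letters were chosen after the sequences had been read, and a match is not a measured binding site.

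Invariant chain RNA was the most abundant of the 7. Cd74, on chromosome 18 from 60803849 to 60812652, ran from 59.0 to 177 CPM over the 16 mice with a median of 87.4, on 863 to 3145 counts per library. The chains of I-A ran from 28.1 to 84.7 CPM for H2-Aa (median 42.3) and from 22.9 to 70.5 CPM for H2-Ab1 (median 36.5). H2-Eb1 lay between them by median, at 25.4 to 84.9 CPM (median 41.6). The DM chains were an order of magnitude lower: H2-DMa ran from 2.73 to 6.08 CPM (median 4.03) and H2-DMb1 from 2.17 to 6.505 CPM (median 3.04). Ciita, the coactivator, was the lowest at 1.03 to 3.53 CPM (median 2.09), on 18 to 54 counts. Together the 7 genes took 0.0144 to 0.0433 percent of a library's counts, with a median of 0.0213 percent.

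**Figure D1:**
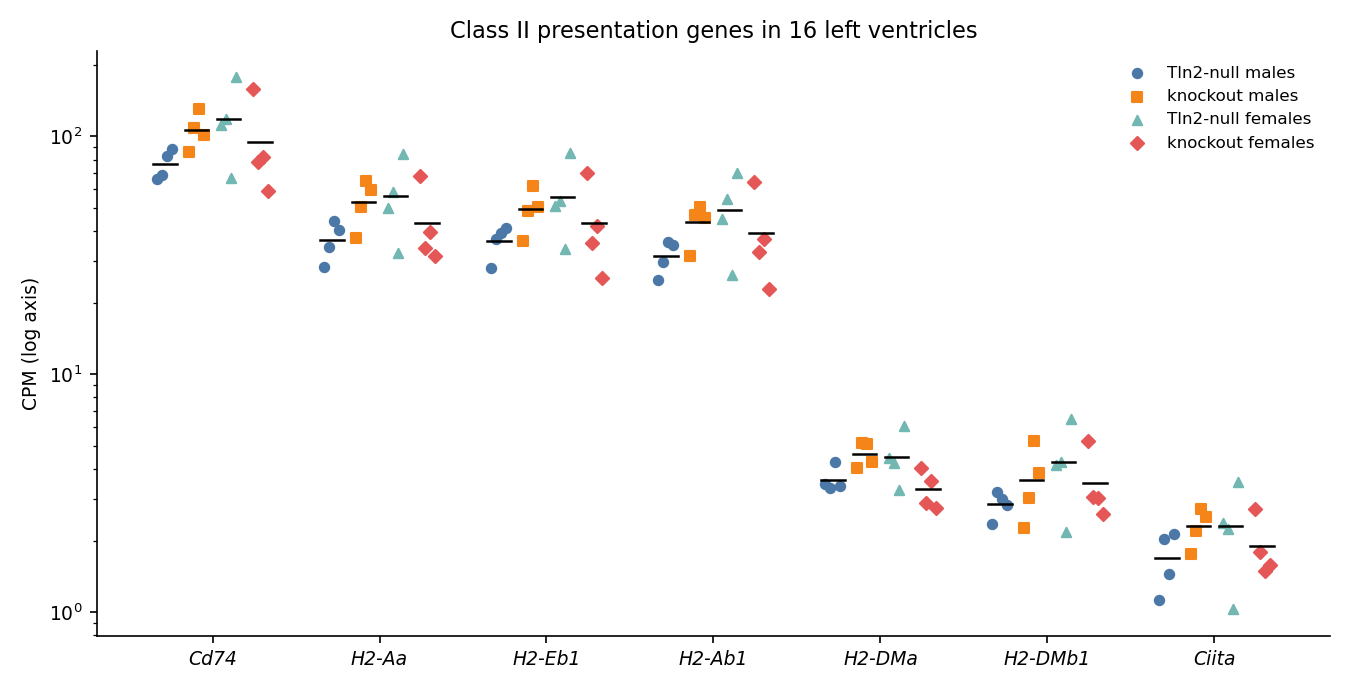
CPM of the 7 class II presentation genes (log axis) in each of 16 left ventricles, with 1 point per mouse, symbols for the 4 groups of genotype and sex (n = 4 each) and a bar at each group's mean. Cd74 is the highest and Ciita the lowest gene, and knockout and Tln2-null mice overlap within each sex for all 7 genes.

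Per kilobase of the principal transcript, the order of the levels was Cd74 at 70.3 ± 24.0 CPM per kb (SD, n = 16), H2-Aa at 42 ± 14.2, H2-Ab1 at 33.7 ± 11.49 and H2-Eb1 at 27.7 ± 9.44. H2-DMb1 at 2.53 ± 0.884 and H2-DMa at 2.42 ± 0.539 CPM per kb followed, with Ciita at 0.340 ± 0.109. Among the first 4, each stood above the next in 16 of 16 mice, although their ranges over mice overlapped. H2-DMb1 stood above H2-DMa in 10 of 16 mice, so these neighbours did not differ beyond their spread by this length (16 of 16 mice by all exons). Divided by the length of all annotated exons instead, H2-Eb1 (23.8 CPM per kb) came before H2-Ab1 (15.9) and H2-Aa (12.5), so the order within the I-A and I-E chains depends on the length taken. The place of Cd74 at the top and of the DM chains and Ciita below the I-A and I-E chains held for both lengths.

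The alpha chain partner of H2-Eb1 was not transcribed at a detectable level. C57BL/6 mice are known to lack the I-E alpha chain because of a deletion at its gene, which is annotated as the pseudogene H2-Ea-ps on this genome. It had 0 counts in all 16 libraries, while H2-Eb1 stood at a mean of 46.2 CPM. The limit of 0.156 to 0.269 CPM given above (counting error only) is that of a single library. Of the other class II genes, H2-Ob, a chain of the DM inhibitor DO, measured 1.44 ± 0.410 CPM (SD, n = 16). Its partner H2-Oa measured 0.203 ± 0.144 CPM on 55 counts in all, the second DM beta gene H2-DMb2 0.389 ± 0.191 CPM, and H2-Eb2 0.0892 ± 0.0711 CPM on 24 counts in all. Only H2-Ob among these 5 passed the filter on low counts, and it did not pass the test between genotypes (log2 fold change 0.11 ± 0.19 SE, edgeR adjusted p = 0.971).

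The study compared knockout with Tln2-null ventricles, and over both sexes none of the 7 class II genes passed the test. In bulk tissue, fewer cells of a type and less RNA per cell cannot be told apart, here and in all that follows. For Cd74 the mean was 97.6 ± 37.8 CPM in mice labelled Tln2-null and 101 ± 31.8 CPM in those labelled as knockout (SD, 8 mice each, n = 8), and its log2 fold change was 0.07 ± 0.21 (SE). H2-Aa measured 46.6 ± 18.4 and 48.2 ± 14.6 CPM (0.07 ± 0.22), and H2-Ab1 40.2 ± 15.7 and 41.4 ± 12.96 CPM (0.08 ± 0.22). H2-Eb1 measured 46.1 ± 17.8 and 46.3 ± 14.7 CPM (0.04 ± 0.21). The groups overlapped for each of these genes, and each difference was smaller than the SD within a genotype.

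The DM chains and the coactivator also overlapped between genotypes. H2-DMa averaged 4.06 ± 0.948 CPM in Tln2-null mice against 3.97 ± 0.900 CPM in the knockout (log2 fold change -0.03 ± 0.16), H2-DMb1 3.56 ± 1.41 and 3.53 ± 1.14 CPM (0.02 ± 0.22), and Ciita 1.99 ± 0.810 and 2.09 ± 0.508 CPM (0.09 ± 0.23). By edgeR's quasi-likelihood test with Benjamini-Hochberg adjustment 0 of 7 passed (adjusted p = 0.980 to 0.998), and 0 had an unadjusted p under 0.05. Over all 13775 genes tested 0 percent passed and 5.08 percent had an unadjusted p under 0.05. DESeq2 also called 0 of the 7. The median log2 fold change of the 7 was 0.07, against -0.00 over all genes tested. It lay between -0.04 (without knockout replicate 2) and 0.21 (without Tln2-null replicate 8) when each library was left out in turn. With the 4 females that held Y-linked reads left out it was 0.41, with 3 of the 7 at an unadjusted p under 0.05, as 3.34 percent of all genes were in that fit, and 0 passed. That fit kept knockout replicate 2 (159 CPM of Cd74) as the only knockout female, beside Tln2-null females 2, 6 and 8 (112, 66.8 and 177 CPM).

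In males the class II genes stood higher in the knockout, and in females lower, without passing the test in either sex. In males the 4 Tln2-null mice had 66.4, 68.7, 83.1 and 88.8 CPM of Cd74, and the 4 knockout mice 86.0, 102, 109 and 130 CPM. H2-Aa measured 28.1, 34.1, 40.5 and 44.1 CPM against 37.5, 50.4, 59.4 and 65.2 CPM. For both genes 3 of the 4 knockout males lay above all 4 Tln2-null males, and the lowest knockout male, replicate 1, lay inside the Tln2-null range. The log2 fold change in males was 0.48 ± 0.27 (SE) for Cd74, 0.53 ± 0.27 for H2-Aa, 0.44 ± 0.28 for H2-Eb1, 0.47 ± 0.28 for H2-Ab1, 0.36 ± 0.19 for H2-DMa, 0.33 ± 0.31 for H2-DMb1 and 0.44 ± 0.32 for Ciita. The median was 0.44, against -0.01 over all genes, and 0 of 7 passed (edgeR adjusted p = 0.775 to 0.824). None had an unadjusted p under 0.05, a level that 6.07 percent of all genes reached, and 0 percent of all genes passed. With each library left out in turn the median in males ran from 0.345 to 0.56. Without knockout replicate 2 or Tln2-null replicate 6 or 8, 2 of the 7 reached the unadjusted level (6.71, 6.23 and 6.82 percent of all genes). Without knockout replicate 1 or Tln2-null replicate 5 it was 1 (9.31 and 6.45 percent), and without any other library 0. None passed in these fits.

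In females the 4 Tln2-null mice had 66.8, 112, 118 and 177 CPM of Cd74, and the 4 knockout mice 59.0, 78.5, 82.0 and 159 CPM. H2-Aa measured 32.2, 50.2, 58.6 and 84.7 CPM against 31.4, 33.8, 39.7 and 68.1 CPM. Each group of females held 1 mouse well above the others, Tln2-null replicate 8 and knockout replicate 2, and the groups overlapped. The median log2 fold change of the 7 genes was -0.32, against 0.00 over all genes, and 0 of 7 passed (edgeR adjusted p = 0.9998 for each). H2-DMa had an unadjusted p of 0.0340 (log2 fold change -0.43 ± 0.19), a level under 0.05 that 3.31 percent of all genes reached, and 0 percent of all genes passed. That median rested on single libraries. It was -0.65 without knockout replicate 2, -0.52 without Tln2-null replicate 6, -0.17 without knockout replicate 7 and -0.08 without Tln2-null replicate 8. Without the 4 females that held Y-linked reads, which leaves knockout replicate 2 as the only knockout female, it turned to 0.31, with 6 of the 7 genes higher. The number of the 7 at an unadjusted p under 0.05 was 5 without knockout replicate 2 (7.8 percent of all genes in that fit). It was 2 without Tln2-null replicate 6 (4.08 percent), and 0 without Tln2-null replicate 2 or 8 or knockout replicate 3 or 7 (2.42 to 4.01 percent).

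**Figure D2:**
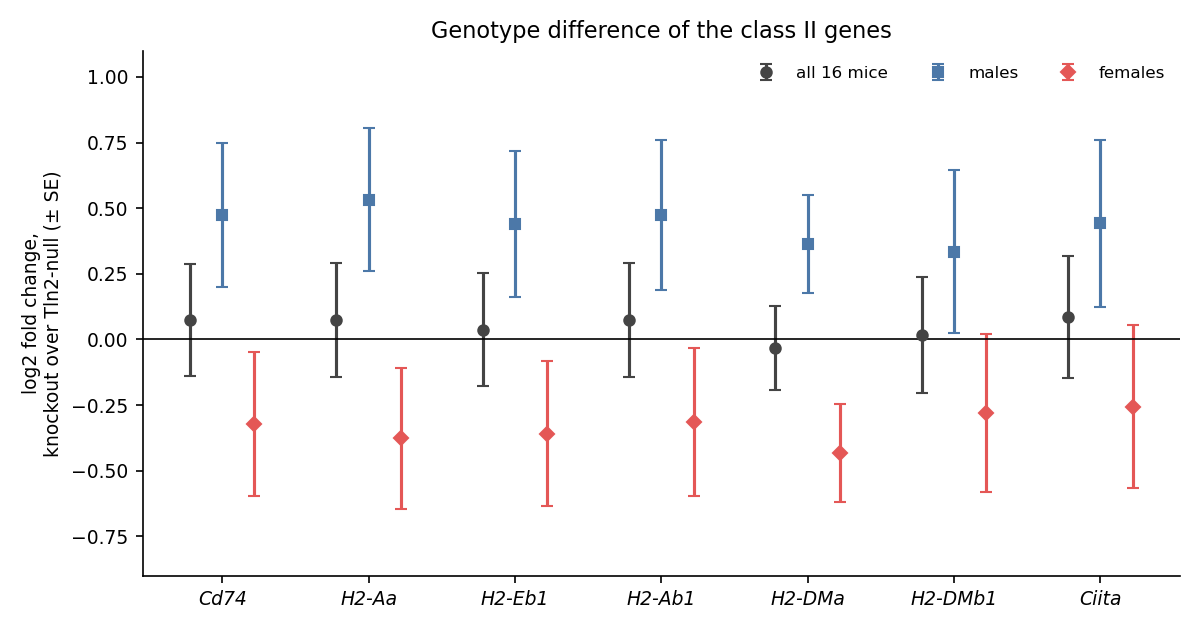
Log2 fold change of knockout over Tln2-null mice (± SE, edgeR) for each of the 7 genes, in all 16 mice, in 8 males and in 8 females. The points for males lie between 0.33 and 0.53, those for females between -0.43 and -0.26, and those for all mice near 0.

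The difference between the sexes was tested itself, as the genotype difference in females minus that in males. It was below 0 for all 7 genes, with a median of -0.80 against 0.00 over all genes tested. H2-DMa showed -0.80 ± 0.27 (SE, unadjusted p = 0.00792) and H2-Aa -0.91 ± 0.38 (unadjusted p = 0.0299). None passed by edgeR (0 of 7, adjusted p = 0.980 for each), while 4.27 percent of all genes had an unadjusted p under 0.05 and 0 percent passed. The number of the 7 at an unadjusted p under 0.05, which was 2, rested on single libraries. It was 7 without Tln2-null replicate 6 (5.94 percent of all genes in that fit) and 5 without knockout replicate 1 or 2 (5.82 and 5.55 percent). Without any one of the other libraries it was 1 to 3 (2.29 to 5.7 percent), with 0 passed in each. That number also depended on the fit with all 16 libraries kept. It was 5 by limma-voom (4.94 percent), 4 with no filter on low counts (3.92 percent) and 2 by DESeq2 (4.2 percent). On the deposited normalized values it was 3 (4.07 percent). With the title number as covariate or 1 surrogate variable it was 1 (4.12 and 3.7 percent), and none passed. The 7 genes went up and down together from mouse to mouse, as given further on, so a shared direction of all 7 is not 7 separate observations. With the 4 females that held Y-linked reads left out the median was -0.12 and 0 of the 7 reached that level (7.25 percent of all genes), and without both replicate 8 libraries it was -0.54.

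H2-DMa had the lowest p for that difference. In males its values were 3.32, 3.38, 3.47 and 4.27 CPM (Tln2-null) against 4.02, 4.29, 5.09 and 5.16 CPM (knockout), and 4 of 4 knockout males lay above the Tln2-null mean of 3.61 CPM. In females they were 3.26, 4.22, 4.43 and 6.08 CPM (Tln2-null) against 2.73, 2.88, 3.55 and 4.03 CPM (knockout), and 0 of 4 knockout females lay above the Tln2-null mean of 4.50 CPM. The groups overlapped in both sexes, on 40 to 87 counts per library. The part of reads from the overlapping gene Brd2 in these counts was not tested.

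Between females and males, adjusted for genotype, 6 of the 7 genes stood higher in females (median log2 fold change 0.21, against -0.00 over all genes). H2-DMb1 showed the largest difference at 0.28 ± 0.22 (SE), and H2-DMa stood lower at -0.08 ± 0.16. None passed by edgeR (0 of 7, adjusted p = 0.9998 for each) or reached an unadjusted p under 0.05, while 0.0871 percent of all genes passed and 3.69 percent reached the unadjusted level. With the 4 females that held Y-linked reads left out the median was 0.57 and 5 of the 7 had an unadjusted p under 0.05, as 6.18 percent of all genes had in that fit, still with none passed (smallest adjusted p 0.723). Without Tln2-null replicate 8 it was 0.06, without knockout replicate 2 it was 0.10, without Tln2-null replicate 1 it was 0.13 and without knockout replicate 7 it was 0.33. Neutrophil markers stood higher in females beside the class II genes, 4 of the 4 tested with a median of 1.78 (3 with an unadjusted p under 0.05, 0 passed), and so did 5 of 6 monocyte markers (median 0.41, 0 passed). The summed CPM of 5 neutrophil markers was 6.92 to 69.2 in females and 5.8 to 21.5 in males. It was highest in Tln2-null replicate 8 (69.2 CPM), Tln2-null replicate 4 (58.6 CPM) and knockout replicate 2 (43.5 CPM), and its part in the class II values was not tested.

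The class II genes varied widely between mice of the same group. Within a group of genotype and sex the SD of log2 CPM was 0.448 for Cd74, 0.445 for H2-Aa, 0.473 for H2-Ab1 and 0.457 for H2-Eb1. Among the genes within 2-fold of each one's level, 98.3 to 98.7 percent had a smaller SD, and the median SD of those genes was 0.131 to 0.145. At lower levels, H2-DMb1 had an SD of 0.477 (86.5 percent of its neighbours in level had less) and Ciita 0.486 (74.2 percent). H2-DMa varied less, with an SD of 0.256, below the median of 0.286 for genes of its level. Its exons overlap those of Brd2, as given above, and the part of Brd2 reads in its counts was not tested.

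The same mice were high or low for most of the 7 genes. Tln2-null replicate 8, a female, held the highest value of all 7, among them 84.9 CPM of H2-Eb1 and 3.53 CPM of Ciita. Knockout replicate 2, a female, came second for all but H2-DMa, with 159 CPM of Cd74 and 64.1 CPM of H2-Ab1. Knockout replicate 6, a male, held 65.2 CPM of H2-Aa and 5.23 CPM of H2-DMb1. Knockout replicate 7, a female, was the lowest for Cd74 (59.0 CPM), H2-Ab1, H2-Eb1 and H2-DMa (2.73 CPM). Tln2-null replicate 1, a male, was the lowest for H2-Aa, and Tln2-null replicate 6, a female, for H2-DMb1 and Ciita.

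**Figure D3:**
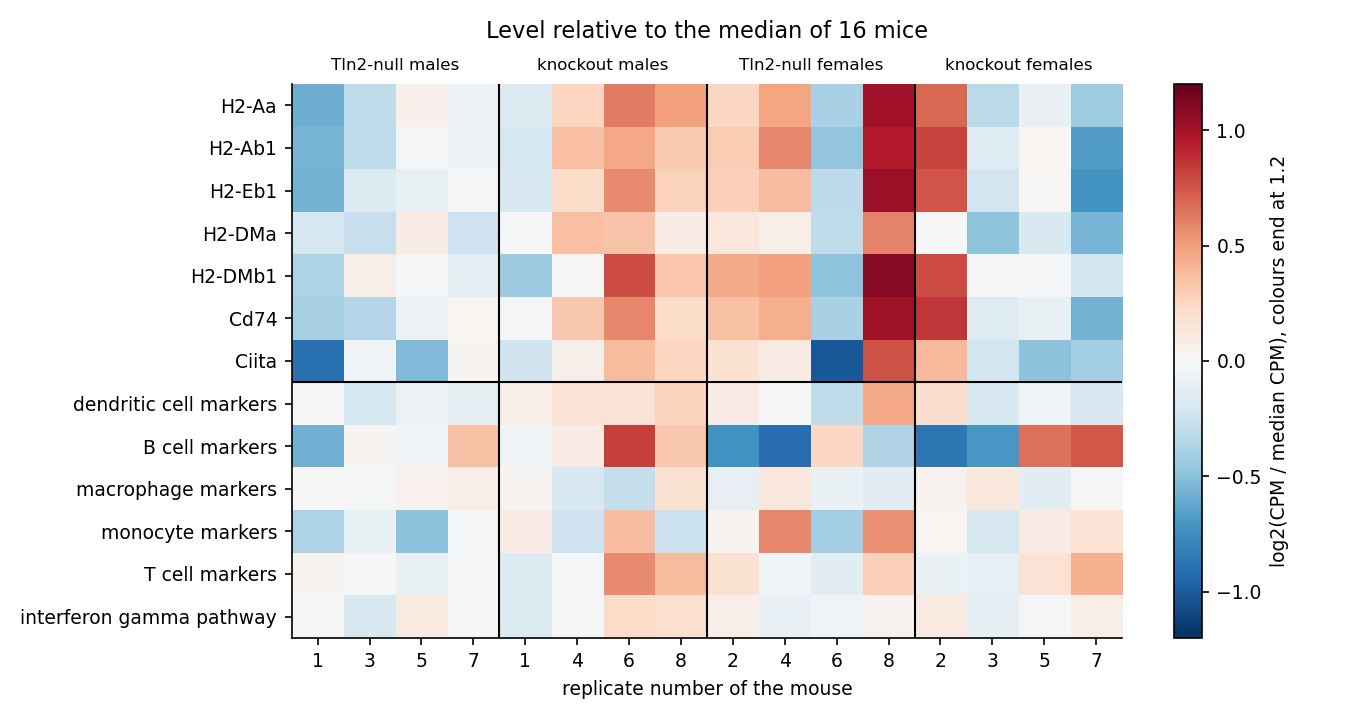
Log2 of each mouse's level over the median of 16 mice, for the 7 class II genes (upper rows) and for the summed CPM of 6 marker or pathway lists (lower rows), with mice in columns by group and replicate number. Tln2-null replicate 8 is high for all 7 genes and for the dendritic cell markers, and the macrophage row is nearly flat.

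After the mean of each genotype and sex was taken off, all 21 pairs of the 7 genes were positively correlated over the 16 mice. H2-Ab1 and H2-Eb1 gave r = 0.975 and rho = 0.897 (within-group permutation p = 4e-05 and 5e-05, adjusted p = 0.000168 for r). H2-Ab1 and Cd74 gave r = 0.974 and rho = 0.971 (permutation p = 1e-05 for each, the smallest that the permutations can give). Pearson's r ran from 0.65 to 0.975 with a median of 0.893, and 21 of 21 pairs passed at an adjusted p of 0.0431 or less. By Spearman's rho 20 of 21 passed.

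The coactivator also was correlated with its targets over the mice. Ciita gave r = 0.832 with H2-Ab1, 0.837 with Cd74, 0.846 with H2-Eb1, 0.85 with H2-Aa and 0.893 with H2-DMb1. The weakest pair was H2-DMa with Ciita (r = 0.65, permutation p = 0.0431; rho = 0.479, permutation p = 0.101), which rested on 2 mice: without the 2 mice farthest from the median of H2-DMa, r was 0.279. The other pairs kept r at 0.608 or more without the 2 farthest mice.

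The correlations were also positive within each genotype (r = 0.67 to 0.988 over 8 Tln2-null mice and 0.629 to 0.988 over 8 knockout mice). Over the 8 females r ran from 0.856 to 0.988. Over the 8 males the median r was 0.716, from near 0 for H2-DMa with Ciita to 0.955 for H2-Aa with H2-Ab1. All values of a mouse come from 1 library and share its scaling. Without both replicate 8 libraries r ran from 0.528 to 0.976 (20 of 21 pairs passed), and with the 4 females that held Y-linked reads left out from 0.666 to 0.979 (19 of 21). The libraries left out of these pairs were chosen after the data had been seen.

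Ratios between members were taken within each mouse. H2-Ab1 stood at a median of 0.866 counts per count of H2-Aa (0.73 to 0.969 over 16 mice), while each gene alone varied about 3-fold. Cd74 stood at 2.08 counts per count of H2-Aa (1.71 to 2.36), and H2-Eb1 at 1.13 per count of H2-Ab1 (0.988 to 1.28). H2-DMb1 to H2-DMa, at 0.918 (0.561 to 1.3), spanned about as wide a range as H2-DMa alone. None of the 4 ratios passed between genotypes by an exact two-sided permutation test within sex (log2 differences of -0.04 to 0.05, p = 0.4 to 0.866, adjusted p = 0.866 for all 4).

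Of the marker lists set beside the class II genes, the dendritic cell markers had the highest r with them over all 16 mice. The summed CPM of 12 dendritic cell markers ran from 12.2 to 20.8 over the mice and gave r of 0.702 to 0.853 with the 7 genes. The highest was with H2-DMa (r = 0.853, rho = 0.791, permutation p = 0.00339 and 0.0032), and the value with Cd74 was r = 0.838 (rho = 0.641, permutation p = 0.00638 and 0.0249). Without the 2 mice farthest from the median of each class II gene, r was lower, from 0.28 for Ciita to 0.741 for H2-Eb1. None of the 42 relations computed between members and lists passed the adjustment (smallest adjusted p = 0.0858). Leaving out Tln2-null replicate 1 let 5 pass, all with dendritic cell markers (r = 0.816 to 0.904), and leaving out knockout replicate 8 let 1 pass. Without both replicate 8 libraries r ran from 0.555 to 0.834, and without Tln2-null replicate 6 from 0.471 to 0.779. With the 4 females that held Y-linked reads left out it ran from 0.689 to 0.837 for dendritic cell, 0.502 to 0.777 for monocyte and 0.458 to 0.846 for T cell markers, so the dendritic cell markers no longer stood alone. None passed under these 3 settings.

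Within sexes the values lay apart. Over 8 females r with the dendritic cell markers was 0.896 to 0.978, and over 8 males it was -0.32 to 0.251, so it did not hold within males. Whether the sexes differed was not tested. The sum was led by Zbtb46, a factor of classical dendritic cells that endothelium is also known to express, at a mean of 9.37 CPM of 15.4 in all. Of the 12 markers 5 passed the filter on low counts; Clec9a and Flt3, of classical dendritic cells and their precursors, stood at 0.665 and 0.558 CPM, and Xcr1 at 0.429 CPM, and all 12 had counts in some mice. In males the sums were 13 to 15.1 CPM in Tln2-null and 15.9 to 18.2 CPM in knockout mice. In females they overlapped, at 12.2 to 20.8 and 13.2 to 17.4 CPM. The sums in males were not tested, and how many genes or lists lie apart in this way was not counted. Cardiomyocyte marker sums also lay apart in males. Of the 5 dendritic cell markers tested 4 stood higher in knockout males, with 0 at an unadjusted p under 0.05. The part of the dendritic cell markers in the class II values was not tested.

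**Figure D4:**
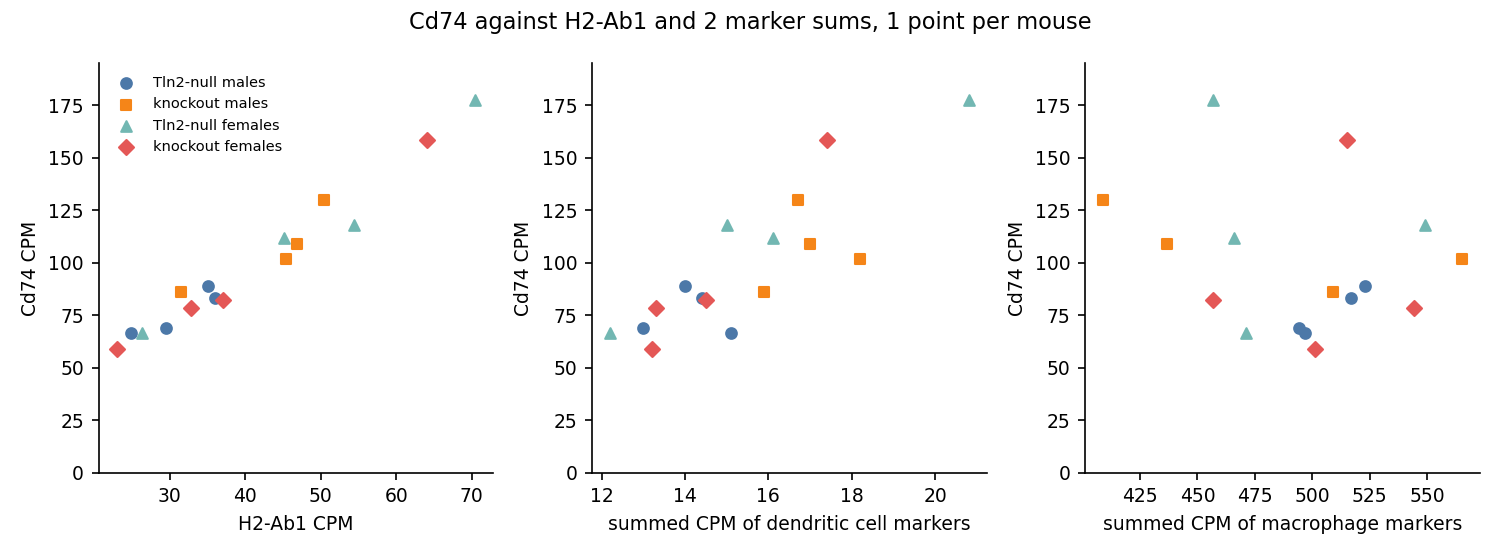
Cd74 CPM against H2-Ab1 CPM, the summed CPM of 12 dendritic cell markers and the summed CPM of 13 macrophage markers, with 1 point per mouse and symbols for the 4 groups. Cd74 follows H2-Ab1 closely over the whole range, follows the dendritic cell sum among females, and is spread over the range of the macrophage sum.

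Macrophage markers were far more abundant, at a summed 409 to 565 CPM for 13 genes. Their r with the 7 class II genes was -0.35 to 0.012 (smallest permutation p = 0.217 of 7). That sum was led by Lyz2, at a mean of 157 CPM of 495 in all, and does not single out the macrophages that carry class II. The part of macrophages in the class II values was not tested. B cell markers, at 3.39 to 11.3 CPM for 9 genes, gave r of -0.39 to -0.21, with 0.234 to 0.924 over 8 males and -0.65 to -0.36 over 8 females, a difference that was not tested. The negative r rested on few mice: it was -0.13 to 0.0725 without knockout replicate 2, -0.22 to 0.0411 without Tln2-null replicate 6, -0.20 to 0.166 with the 4 females that held Y-linked reads left out, and -0.12 to 0.193 without the 2 mice farthest from the median. Monocyte markers gave r of 0.358 to 0.621, T cell markers 0.109 to 0.445 and the interferon gamma pathway 0.29 to 0.533, and none passed. Without Tln2-null replicate 6 monocyte markers gave 0.00308 to 0.319 and T cell markers -0.0754 to 0.353. Markers of lymphoid tissue were nearly absent: 0 of 7 passed the filter, Ccl21a had 0 counts in all 16 libraries, and Rag1 and Dntt had 3 counts each in all.

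Genes whose pattern over the 16 mice was most like that of H2-Aa, H2-Ab1, H2-Eb1 and Cd74 were sought among 12003 other genes at 2 CPM or more. Among the closest were Adamts9 (r = 0.87, 23.5 CPM), Tmem251 (0.863, 12.1 CPM), Cep41 (0.854, 3.31 CPM), Fam111a (0.839, 9.49 CPM), Orai2 (0.828, 2.38 CPM), Fubp1 (0.824, 95.4 CPM) and Ppargc1a (0.821, 180.0 CPM). The next gene after these stood at 0.816 and the median of all compared genes at -0.01. They were picked as the highest of many, so these r values are a description. Pairs among the I-A, I-E and Cd74 genes gave r of 0.95 or more.

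None of the regulators of class II transcription passed the test between genotypes. All 16 genes of that list were tested, with 4 higher and 12 lower in the knockout and a median log2 fold change of -0.04. Rfx5, Rfxank and Rfxap, the subunits of the RFX complex, had means of 11.1, 24.9 and 19.8 CPM in Tln2-null mice against 11.1, 24.9 and 19.3 CPM in the knockout. The list's 4 genes of lowest p were Spi1, the macrophage and B cell factor PU.1, at 6.45 ± 1.01 and 5.36 ± 1.05 CPM (log2 fold change -0.27 ± 0.12, adjusted p = 0.935 by edgeR), the interferon regulatory factors Irf1 (-0.14 ± 0.07) and Irf8 (-0.18 ± 0.12), and Usf1 (-0.06 ± 0.06). Spi1 was the only one with an unadjusted p under 0.05 (0.0410). Rfx5, Rfxank and Rfxap are named after their values were seen.

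Interferon gamma is the best known inducer of Ciita. Its own transcript Ifng had 5 counts in all, with 13 of 16 libraries at 0. Of 20 pathway genes 18 were tested and 0 passed, with 6 higher and 12 lower in the knockout (median log2 fold change -0.04). In males 13 of the 18 stood higher (median 0.05) and in females 14 lower (median -0.16), with 0 passed in either. Over all genes tested 48.5 percent stood higher in males and 50 percent in females. Of 8 tested T cell markers 7 stood higher in males (median 0.20) and 6 lower in females (median -0.35), with 0 passed. All 8 tested B cell markers stood higher in both sexes. The part of these lists in the class II values was not tested. The 4 of lowest p were Jak1 at 249 ± 29.8 and 282 ± 29.1 CPM (0.18 ± 0.08), Cxcl10 at 0.633 ± 0.484 and 0.329 ± 0.135 CPM (-0.89 ± 0.39), Irf1 at 40.3 ± 3.32 and 36.5 ± 3.94 CPM and Jak2 at 53.1 ± 3.10 and 57.1 ± 4.71 CPM (0.10 ± 0.06). Jak1 and Cxcl10 had unadjusted p of 0.0347 and 0.0370 (edgeR adjusted p = 0.935 for each). Whether Ciita came from its interferon-responsive promoter or another could not be read from whole-gene counts.

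The list of endosomal loading and proteolysis genes, taken broadly, gave no call. Beside proteases it held Lamp1, Lamp2, Cst3, Mif, Cxcr4 and March1. All 15 genes of the list were tested and 0 passed, with 8 higher and 7 lower (median log2 fold change 0.01). Ctss, the protease that trims the invariant chain, measured 25.9 ± 3.51 and 26.1 ± 3.69 CPM and Ifi30, a thiol reductase of endosomes, 9.57 ± 1.195 and 9.37 ± 1.78 CPM. The gene of lowest p was the cathepsin gene Ctsz at 50.5 ± 6.53 and 43.8 ± 7.10 CPM (-0.21 ± 0.10, adjusted p = 0.935 by edgeR, unadjusted p = 0.0394). March1, whose product removes class II from the surface, measured 2.87 ± 0.868 and 3.06 ± 0.889 CPM. Ctss, Ifi30 and March1 are named after their values were seen. Of 8 costimulatory genes 6 were tested and 0 passed (3 higher and 3 lower), led by Cd83 at 4.40 ± 0.644 and 5.20 ± 0.938 CPM and Cd80 at 1.14 ± 0.312 and 0.872 ± 0.333 CPM.

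Class I presentation, the pathway that shows peptides from inside the cell, gave no call either. Of 17 genes tested 13 stood lower in the knockout and 0 passed, with a median log2 fold change of -0.10. The 4 of lowest p were Tapbpl at 9.81 ± 1.13 and 8.49 ± 0.779 CPM (-0.21 ± 0.08), the peptide transporter gene Tap2 at 54.6 ± 5.56 and 48.9 ± 4.91 CPM (-0.16 ± 0.07), the immunoproteasome gene Psmb8 (-0.17 ± 0.08) and the class I heavy chain gene H2-D1 at 60.8 ± 3.74 and 55.5 ± 6.21 CPM (-0.13 ± 0.07). Tapbpl and Tap2 had an unadjusted p under 0.05 (0.0251 and 0.0450, edgeR adjusted p = 0.926 and 0.935). A difference between the class I and class II lists was not tested.

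No marker of the cell types listed passed the test between genotypes. All 7 fibroblast markers stood lower in the knockout (median log2 fold change -0.32, 5 with an unadjusted p under 0.05 and 0 passed). Over all genes tested 5.08 percent had such an unadjusted p. The summed levels of the fibroblast markers were 2300 to 3330 CPM in Tln2-null and 1900 to 2800 CPM in knockout mice. Tcf21, a transcription factor of fibroblasts, measured 11.54 ± 2.48 and 6.11 ± 2.16 CPM (-0.93 ± 0.18, edgeR adjusted p = 0.158). All 8 tested B cell markers stood higher (median 0.42, 0 passed), led by Bank1 at 1.08 ± 0.412 and 1.65 ± 0.701 CPM (0.59 ± 0.28). The 13 macrophage markers were split, with 6 higher and 7 lower (median -0.02), and the 5 tested dendritic cell markers likewise, with 3 higher and 2 lower (median 0.09). Higher and lower were 4 and 1 of 5 resident macrophage, 3 and 3 of 6 monocyte, 4 and 4 of 8 T cell, 1 and 3 of 4 neutrophil and 3 and 4 of 7 endothelial markers. Among the macrophage markers C1qb (-0.17 ± 0.08, edgeR unadjusted p = 0.0466) and among the T cell markers Cd28 (0.31 ± 0.13, 0.0306) also reached that unadjusted level. All 7 cardiomyocyte markers stood higher (median 0.07, 2 with an unadjusted p under 0.05), with summed levels of 46400 to 48900 CPM in knockout and 41800 to 44300 CPM in Tln2-null males. In females those sums overlapped, at 41100 to 47300 and 42900 to 45500 CPM, with 4 of the 7 higher (median 0.02). The part of these cell types in the class II values was not tested.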

How the data were processed

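RNA was extracted from left ventricle with TRIzol and a column, and a directional kit was used for the libraries, per the labels' protocols. The submitters' processing notes name DRAGEN, DESeq2 and the mm10 build, without versions or roles. The deposited table held raw counts for 24982 entries in 16 libraries (5760 at 0 in all). A second deposited table, of normalized signal for 16405 genes, held in each column the counts divided by 1 constant, and multiplying back gave whole reads (100 percent of values within 0.001) equal to the counts. Of 26 symbols turned into dates 21 were restored.

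Counts were tested with edgeR 4.0.16 (R 4.3.3): TMM scaling, filterByExpr by genotype and sex, the quasi-likelihood test with genotype and sex or with 1 mean per genotype and sex, and Benjamini-Hochberg adjustment over 13775 genes, called under 0.05. Standard errors, taken as |log2 fold change| divided by √F, are approximate. Other fits used DESeq2 1.42.0, limma 3.58.1 and sva 3.50.0. In simulated data of 13706 genes for the genotype comparison, 97 percent of genes changed by log2 1 and 100 percent changed by log2 2 were called. The changed genes (100 of each size) were drawn at random from those at a mean of 2 CPM or more. Cd74 and the I-A and I-E chains varied more than most genes of their level. These shares therefore do not tell how often a change in them would be called. In the measured data Tcf21, at -0.93 ± 0.18 (SE), did not pass (edgeR adjusted p = 0.158). Correlations used log2 CPM (prior count 0.5) less group means and 100000 two-sided permutations within the 4 groups of genotype and sex.

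Of 180 symbols in 18 lists, 176 matched the table. Members and lists were chosen with earlier results of these data known. Genes named were Tln1, Tln2, the members, up to 4 genes of lowest p per list, and the 8 genes most like the members, of which 1 is not reported here; any other is said to be chosen after its values were seen. Replicates are separate mice as far as the labels tell, and replicate numbers follow record order. Intervals and floors cover counting error only.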

Additional observations from a re-analysis of the deposited data

Results flagged for a closer look

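Tln2-null replicate 8, a female, stood far above the other 7 Tln2-null mice for H2-Eb1 (84.9 CPM), H2-DMa (6.08 CPM) and Cd74 (177 CPM). Of 14 groups of 8 mice examined (7 genes in 2 genotypes, both sexes together) these 3 had a highest value set apart by Dixon's criterion. For normally distributed values chance exceeds that criterion in about 1 group in 20. Here the criterion was applied to CPM and not to log2 CPM, so the flag holds for that scale only. The 3 genes share 1 library. It is also 1 of the 2 libraries with clock genes apart, and its part in the class II values was not tested.

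H2-DMa stood above the mean of Tln2-null males (3.61 CPM) in every knockout male and below the mean of Tln2-null females (4.50 CPM) in every knockout female. The genotype difference in females minus males was -0.80 on the log2 scale (edgeR unadjusted p = 0.00792, adjusted p = 0.980), so it did not pass over all genes. The part of Brd2 reads in the H2-DMa counts was not tested.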

How the results depend on the processing

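No alternative called any of the 7 genes in any comparison. Of 1181 values recomputed, 1124 kept their direction and side of the threshold, 54 turned sign and 3 counts moved. Where a sign turned the cause was not tested.

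With limma-voom quality weights the log2 genotype difference was -0.0055 for H2-Aa, -0.0319 for H2-Eb1 and -0.0196 for H2-DMb1, and the sex difference -0.0473 for Ciita. With the title number as covariate it was -0.011 for H2-Eb1 and -0.0447 for H2-DMb1, and with 1 surrogate variable -0.0122 and -0.0578. Without both libraries with clock genes apart it was 0.0765 for H2-DMa, and Ciita gave 0.0237 in females and -0.0368 between sexes. Without the females with Y-linked reads it was 0.22 for H2-DMa, and in females 0.29 for H2-Aa, 0.44 for H2-Ab1, 0.32 for H2-Eb1, 0.30 for H2-DMb1, 0.42 for Cd74 and 0.25 for Ciita. The sex difference of H2-DMa was then 0.17.

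With each library left out in turn, the genotype difference ran from -0.0176 to 0.229 for H2-Aa, -0.0389 to 0.209 for H2-Ab1, -0.073 to 0.195 for H2-Eb1, -0.0882 to 0.0768 for H2-DMa, -0.116 to 0.169 for H2-DMb1, -0.0514 to 0.225 for Cd74 and -0.0103 to 0.244 for Ciita. Ciita ran from -0.498 to 0.0177 in females and from -0.0702 to 0.18 between sexes. The log2 genotype difference in ratio ran from -0.0424 to 0.0277 for Cd74 to H2-Aa, -0.0307 to 0.114 for H2-DMb1 to H2-DMa and -0.04 to 0.0361 for H2-Ab1 to H2-Aa. The members' relations with marker lists that passed numbered 0 of 42, 9 when group means were kept, and 0 to 5 with a library left out (5 without Tln2-null replicate 1).

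Over all genes the genotype comparison called 0 by edgeR, 17 by DESeq2 and 11 by limma-voom, and the sex comparison 12 by edgeR and 21 by DESeq2. Without knockout replicate 8 edgeR called 7 in the genotype comparison. No paired analysis was possible because the replicate numbers were given in record order and pair no mice. Ciita rests on 18 to 54 counts per library.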
